A study of Homo sapiens with 8 samples.

Results

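The genes described here are 3 FOXO transcription factors (FOXO1, FOXO3 and FOXO4), 6 genes known as FOXO targets or as genes that move with FOXO activity (KLF2, S1PR1, TXNIP, PIK3IP1, IRS2 and SESN1), and TRIB2, which encodes a pseudokinase. Membership was set by gene name, and all 10 were among the 13453 genes of the deposited table. The members and the gene lists used below were chosen with earlier results of these data known. Their shares of called genes are therefore descriptions. Of the 10, 8 had a mean FPKM of at least 1 over the libraries and were among the 11427 genes tested. PIK3IP1 and IRS2 fell below that level and were left out of the main fits. They are given as values and from a fit without that filter.

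RNA-seq was performed on Jurkat, an established human T-cell acute lymphoblastic leukemia (T-ALL) line, in which the expression of CBAP, a protein encoded by TMEM102, had been lowered or removed. The 8 libraries form 4 groups of 2. The shRNA set holds cells with a control shRNA (sh-Ctrl) and cells with an shRNA against CBAP (CBAP knockdown). The CRISPR set holds CBAP knockout cells, which express GFP, and CBAP-reconstituted cells, which are knockout cells that express a CBAP-GFP fusion, so both groups of this set share the edited TMEM102 locus and an added fluorescent protein. The study sets sh-Ctrl and CBAP-reconstituted cells, as CBAP-expressing, against CBAP knockdown and CBAP knockout cells, as CBAP-deficient. The series title speaks of clones, and nothing in the labels says that the libraries of a group came from separate cultures, so the p-values below measure only the spread between these libraries, which may be technical. Each set has its own method, its own control and its own cells, and these cannot be told apart in any comparison across the sets. The paper describes the cells of both sets as stable clones, and which clones were sequenced is not given in the sources used here. Within a set, CBAP status and clone therefore cannot be told apart either.

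FOXO proteins are forkhead transcription factors that sit at the end of the PI3K-Akt pathway. Akt phosphorylates them, 14-3-3 proteins then bind them, and they leave the nucleus, so their activity is set largely by phosphorylation and not by the amount of their mRNA. In T cells, FOXO1 is known for driving KLF2, S1PR1 and IL7R, genes of T-cell homing and survival, and in lymphocyte precursors for driving RAG1 and RAG2. TRIB2 binds the ubiquitin ligase COP1, has been described as a repressor of FOXO proteins, and acts as an oncogene in some leukemias. RNA levels cannot show where a FOXO protein is or whether it is phosphorylated, and no such readout was analysed here.

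The promoters were searched for the FOXO recognition sequence GTAAACA on both strands, in the 250 bases before each RefSeq transcription start (RefSeq windows, placed on GRCh37 by an exact match). It was present at TXNIP and TRIB2, thus in 2 of the 10 genes, against 3.66% of the 27305 genes with such a window. Both are printed because these genes had an adjusted p under 0.05 in the knockout comparison below. The shorter core TAAACA, which GTAAACA contains, was present in 3 of the 10 (FOXO3 in addition) and in 13.1% of all genes. The motif is in capitals and each sequence is read on the plus strand, which is the strand of both genes. The TXNIP window, chr1:145438240-145438489, carries GTAAACA 124 bp before the start. The TRIB2 stretch, chr2:12856812-12857035, carries its reverse complement 249 bp before the RefSeq start and ends at the first base before the annotated gene.
TXNIP: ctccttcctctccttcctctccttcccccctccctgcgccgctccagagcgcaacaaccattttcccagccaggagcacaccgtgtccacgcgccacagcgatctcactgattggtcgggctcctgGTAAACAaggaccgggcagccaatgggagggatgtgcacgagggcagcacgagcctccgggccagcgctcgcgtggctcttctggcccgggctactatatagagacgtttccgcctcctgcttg
TRIB2: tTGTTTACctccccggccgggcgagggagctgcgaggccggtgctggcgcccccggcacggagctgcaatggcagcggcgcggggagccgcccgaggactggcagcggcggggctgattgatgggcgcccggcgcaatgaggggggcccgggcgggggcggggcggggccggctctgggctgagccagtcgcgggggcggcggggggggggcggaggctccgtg
A match is a run of letters in this window and no evidence of binding, and a gene without one in this window may carry it elsewhere.

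The deposited values are FPKM, in which the fragments of a gene are scaled to its exon length and to all mapped fragments of the library, with 1 value per gene and library. The values of a library summed to 362082 to 434742 and 606 to 1256 genes per library were listed at 0. The sequencing depth is unknown, so the precision rests on the replicates. Pearson's r of log2(FPKM + 1) between the libraries of a group, across genes, ranged from 0.923 in CBAP knockdown to 0.992 in CBAP-reconstituted cells. TMEM102 had FPKM values of 4.07 and 4.74 in sh-Ctrl and of 2.69 and 2.90 in CBAP knockdown cells, whereas CBAP-reconstituted and CBAP knockout libraries alike had it listed at 0. The libraries labelled CBAP-reconstituted, of the CBAP-expressing class, were thus below the CBAP knockdown libraries. The targeted gene did not separate the groups of the CRISPR set and did not bear out the CBAP-reconstituted label. The reason was not tested. Every direction drawn from that set below is therefore one between the libraries labelled CBAP knockout and those labelled CBAP-reconstituted. The T-cell label was checked on 10 defining markers, all of which were in the table. Their summed FPKM was 1710 to 1750 in sh-Ctrl, 1590 to 1600 in CBAP-reconstituted, 1760 to 1910 in CBAP knockdown and 2100 to 2550 in CBAP knockout cells. Single markers moved far more than this sum. CD28 was 24.1 and 29.2 in sh-Ctrl, 2.93 and 2.59 in CBAP-reconstituted, 27.4 and 28.8 in CBAP knockdown, and 35.5 and 37.4 FPKM in CBAP knockout cells. CD2 was 22.7 and 21.2 in sh-Ctrl, 10.97 and 10.3 in CBAP-reconstituted, 47.7 and 39.1 in CBAP knockdown, and 83.8 and 75.9 FPKM in CBAP knockout cells. CD7 was low in CBAP-reconstituted cells (39.0 and 38.2 FPKM) and 124 to 204 FPKM elsewhere. These markers were chosen for mention after their values were seen. By limma, 6 of the 10 rose and 0 fell in the CRISPR set (60%, against 49.9% of all tested genes). In the shRNA set 1 rose and 2 fell (30%, against 12.3% of all tested genes). CD2 was the marker that rose in both, as TRIB2 did (10%, against 5.76% of all tested genes called in the same direction in both). The part of these shifts in the results below was not tested. Of the markers of other cells, 1 of 4 B-cell markers (CD79A), 0 of 4 myeloid, 1 of 3 erythroid (HBA1) and 2 of 3 epithelial markers were in the table. CD79A lay at 13.0 to 22.5 FPKM in the shRNA set, 9.60 to 9.91 in CBAP knockout and 0.732 to 1.09 in CBAP-reconstituted cells. HBA1 reached 4.25 FPKM and the summed epithelial markers 2.53 FPKM at most, the latter in CBAP-reconstituted cells, with 0 in CBAP knockdown and CBAP knockout cells. By mean FPKM over the 8 libraries, KLF2, TRIB2 and TXNIP lay above 83.3%, 81.6% and 80.5% of the genes in the table, whereas S1PR1 lay above 48.5%, FOXO1 above 19.7%, IRS2 above 14.6% and PIK3IP1 above 6.9%. Bulk RNA cannot tell apart fewer cells of a kind from less RNA per cell.

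TRIB2 (chromosome 2, 12857036 to 12882860, plus strand, GRCh37) was the gene of this group that differed between the CBAP classes. Its FPKM was 16.0 and 22.4 in sh-Ctrl, 19.3 and 19.7 in CBAP-reconstituted, 51.0 and 35.8 in CBAP knockdown, and 63.8 and 54.5 in CBAP knockout cells. Every CBAP-deficient library lay above every CBAP-expressing library, which was so for 4.67% of the tested genes. The mean rose from 19.4 ± 2.65 to 51.3 ± 11.6 FPKM (SD, n = 4 each), a ratio of 2.65.

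With all 8 libraries and no covariate, the log2 fold change of TRIB2 was 1.34 (standard error 0.182, 95% confidence interval 0.92 to 1.76, adjusted p = 0.0376, limma, Benjamini-Hochberg adjusted across the tested genes). Fold changes throughout are on the scale of log2(FPKM + 1), which understates the change of genes with low FPKM. TRIB2 ranked 160th of 11427 from the highest fold change. It was 1 of 8 tested genes called, where 0.621% of all tested genes were called and 0.21% were called higher. The call was lost when any library other than CBAP knockdown replicate 2 was left out, with adjusted p-values of up to 0.185, while the fold change stayed between 1.23 and 1.41 in those fits. The other genes had adjusted p-values of 0.204 (TXNIP, log2 fold change 0.70) to 0.846 (SESN1, 0.04), and their classes overlapped.

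TRIB2 was higher in the CBAP-deficient group of each set, by contrasts whose spread came from all 8 libraries. In CBAP knockdown cells its mean was 2.26 times that of sh-Ctrl cells (log2 fold change 1.14, standard error 0.216, limma adjusted p = 0.0292), and with the libraries of the shRNA set alone the adjusted p was 0.183. In the CBAP knockout libraries it was 3.03 times that of the libraries labelled CBAP-reconstituted (log2 fold change 1.55, standard error 0.216, limma adjusted p = 0.00258). The difference between these changes was -0.41 (95% confidence interval -1.17 to 0.35, limma adjusted p = 0.341). TRIB2 was the only tested member called in the same direction in both sets, against 5.76% of all tested genes and 1.72% higher in both.

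The order of the groups for TRIB2 was CBAP knockout (59.2 ± 6.57 FPKM, SD, n = 2), CBAP knockdown (43.4 ± 10.7), CBAP-reconstituted (19.5 ± 0.315) and sh-Ctrl (19.2 ± 4.57). The step from CBAP knockdown to CBAP-reconstituted passed the test (log2 difference 1.09, limma adjusted p = 0.00915), in a comparison across the sets in which 50.1% of all tested genes were called. Neither the step between the CBAP-deficient groups (0.46, adjusted p = 0.127) nor that between the CBAP-expressing groups (0.04, adjusted p = 0.896) did.

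**Figure D1:**
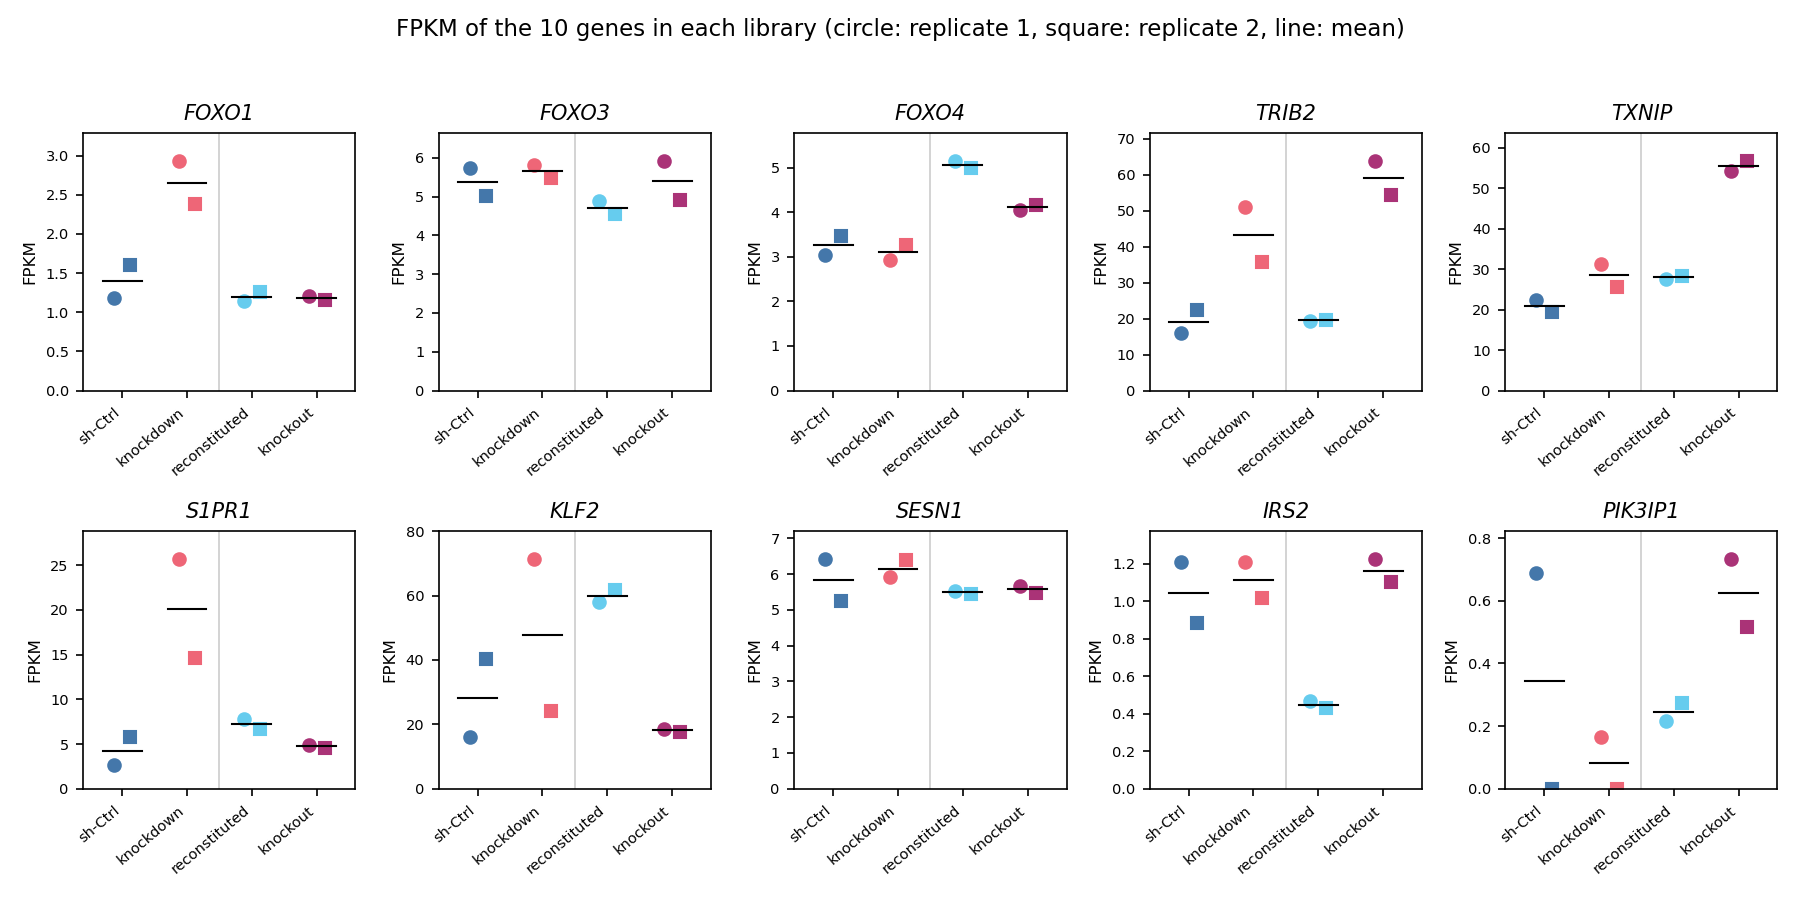
FPKM (linear axis from 0) of each of the 10 genes in each of the 8 libraries, with circles for replicate 1, squares for replicate 2 and a line at the group mean, and the shRNA set left of the grey line. TRIB2 is at 35.8 FPKM or more in each CBAP-deficient library and at 22.4 or less in each CBAP-expressing library, and the other genes do not separate the classes.

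The FOXO genes themselves differed in pattern. FOXO1 (chromosome 13, 41129804 to 41240778, minus strand), the family member with the best known role in lymphocytes, was the lowest of them, with a mean FPKM of 1.61 over the libraries, against 5.28 for FOXO3 and 3.88 for FOXO4. FOXO1 was 1.18 and 1.60 in sh-Ctrl, 1.14 and 1.25 in CBAP-reconstituted, 2.93 and 2.38 in CBAP knockdown, and 1.20 and 1.16 FPKM in CBAP knockout cells. Both knockdown libraries were above the other 6, which lay close together. Within the shRNA set FOXO1 rose 1.91-fold (log2 fold change 0.61, standard error 0.125, limma adjusted p = 0.0344). Its log2 fold change in the CRISPR set was -0.01 (95% confidence interval -0.32 to 0.30, limma adjusted p = 0.951), and the change differed between the sets by 0.63 (limma adjusted p = 0.0426). This difference passed without sh-Ctrl replicate 2 or CBAP knockdown replicate 2, but not without any of the other 6 libraries, with adjusted p-values of 0.0733 to 0.14. FOXO1 and FOXO3 have near-identical processed copies elsewhere in the genome, which are not in the table, and how reads shared with them were counted is not given in the sources used here.

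FOXO3 (chromosome 6, 108881038 to 109005977, plus strand), a factor linked to cell death and stress resistance, was 5.73 and 5.01 in sh-Ctrl, 4.88 and 4.55 in CBAP-reconstituted, 5.82 and 5.47 in CBAP knockdown, and 5.91 and 4.90 FPKM in CBAP knockout cells. The groups overlapped, apart from the low CBAP-reconstituted libraries, and no step in their order passed the test. The log2 fold change was 0.06 in the shRNA set (95% confidence interval -0.20 to 0.33) and 0.16 in the CRISPR set (-0.10 to 0.43).

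FOXO4 (chromosome X, 70315701 to 70323382, plus strand), the third of these factors, separated the sets. It was 3.05 and 3.47 in sh-Ctrl, 5.15 and 4.99 in CBAP-reconstituted, 2.93 and 3.27 in CBAP knockdown, and 4.05 and 4.17 FPKM in CBAP knockout cells. All 4 libraries of the CRISPR set were above all 4 of the shRNA set. The log2 fold change was -0.05 (95% confidence interval -0.26 to 0.16) in the shRNA set and -0.25 (-0.46 to -0.04, limma adjusted p = 0.0542) in the CRISPR set, where it passed without any 1 library of the shRNA set (adjusted p of 0.0346 to 0.0478). This fall also passed after quantile normalization (-0.345, limma adjusted p = 0.0169) and with libraries scaled to 1 median (-0.33, 0.0129). It passed without the trend (0.0393) and with the CRISPR set alone (0.0131) as well. Without any 1 library of the CRISPR set it did not pass (adjusted p of up to 0.216). CBAP-reconstituted cells were higher than sh-Ctrl cells (0.51, limma adjusted p = 0.00717), a comparison in which 39.4% of all tested genes were called and in which the median of all tested genes was itself 0.17. That call was lost without CBAP-reconstituted replicate 1 (0.061) or 2 (0.0551). CBAP knockout cells were higher than CBAP knockdown cells (0.32, limma adjusted p = 0.0239), where 52.8% of all tested genes were called and the median was 0.20. In the order of the groups, CBAP-reconstituted and CBAP knockout did not differ by the test, CBAP knockout was above sh-Ctrl (0.27, limma adjusted p = 0.0438, where 51.7% of all tested genes were called), and sh-Ctrl and CBAP knockdown did not differ by the test (adjusted p = 0.717). The difference between CBAP knockout and CBAP knockdown was 0.14 (limma adjusted p = 0.214) after quantile normalization and 0.10 (0.288) with libraries scaled to 1 median, and it did not pass without CBAP knockdown replicate 1 or any library of the CRISPR set (0.0575 to 0.107).

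**Figure D2:**
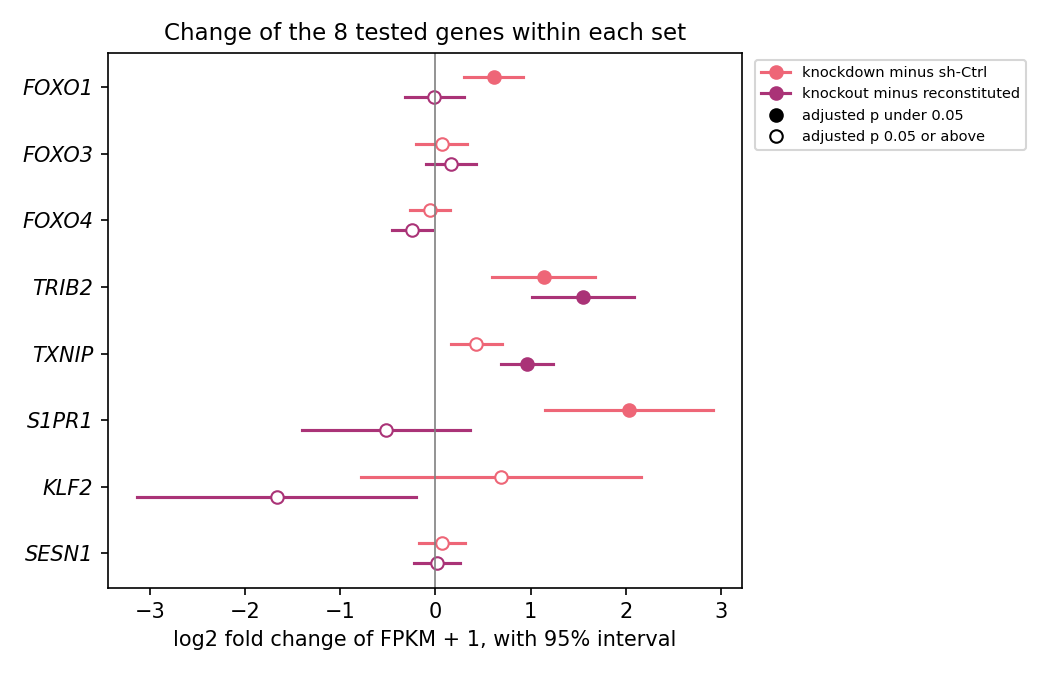
Log2 fold change of FPKM + 1 (horizontal axis, with 95% confidence intervals) of the 8 tested genes within the shRNA and CRISPR sets, with filled circles where the limma adjusted p was under 0.05. TRIB2 is filled in both sets, FOXO1 and S1PR1 in the shRNA set and TXNIP in the CRISPR set.

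TXNIP (chromosome 1, 145438490 to 145442635, plus strand) encodes an arrestin-like protein that binds thioredoxin and limits glucose uptake. Its FPKM was 22.3 and 19.4 in sh-Ctrl, 27.5 and 28.4 in CBAP-reconstituted, 31.2 and 25.7 in CBAP knockdown, and 54.3 and 56.7 in CBAP knockout cells. Both knockout libraries were far above the other 6, and both knockdown libraries were above their sh-Ctrl libraries while overlapping the CBAP-reconstituted ones.

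TXNIP rose 1.99-fold in the CRISPR set (log2 fold change 0.97, standard error 0.110, limma adjusted p = 0.00127). The ratio of its means was 1.37 in the shRNA set (log2 fold change 0.43, limma adjusted p = 0.0604, and 0.0228 without CBAP knockdown replicate 2). Across the sets, CBAP knockout was above CBAP knockdown (log2 difference 0.95, limma adjusted p = 0.00146), CBAP knockdown and CBAP-reconstituted did not differ by the test (0.02, adjusted p = 0.897), and CBAP-reconstituted was above sh-Ctrl (0.41, adjusted p = 0.0323, but 0.257 after quantile normalization and 0.155 with libraries scaled to 1 median). The change was smaller in the shRNA set than in the CRISPR set by 0.54 (95% confidence interval 0.15 to 0.92 lower, limma adjusted p = 0.0458). That difference was lost when libraries were scaled to 1 median (adjusted p = 0.18) and without any library other than sh-Ctrl replicate 2 or CBAP knockdown replicate 1, with adjusted p-values of 0.052 to 0.143. With the set as a covariate, TXNIP joined TRIB2 among the genes called between the CBAP classes (log2 fold change 0.70, limma adjusted p = 0.0264). In that fit 1404 of the 11427 tested genes were called, against 71 without the covariate.

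S1PR1 (chromosome 1, 101702421 to 101709269, plus strand), the sphingosine-1-phosphate receptor that guides lymphocytes out of lymphoid organs, had the largest change of the group in the shRNA set. Its FPKM was 2.67 and 5.77 in sh-Ctrl, 7.74 and 6.73 in CBAP-reconstituted, 25.6 and 14.6 in CBAP knockdown, and 4.93 and 4.57 in CBAP knockout cells. As for FOXO1, both knockdown libraries lay above the other 6. Both knockout libraries lay below both CBAP-reconstituted libraries.

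S1PR1 rose 4.76-fold in CBAP knockdown cells (log2 fold change 2.03, standard error 0.357, limma adjusted p = 0.0243), the 89th highest change of 11427. Without single libraries this log2 fold change ranged from 1.59 to 2.47, and the call was lost without sh-Ctrl replicate 1 or any 1 library of the CRISPR set (adjusted p of 0.0531 to 0.0736). In CBAP knockout cells the log2 fold change was -0.52 (95% confidence interval -1.40 to 0.37, limma adjusted p = 0.274). With the spread taken from the CRISPR set alone, that adjusted p was 0.0095. The change thus differed between the sets by 2.55 (limma adjusted p = 0.0145), with adjusted p-values of 0.0639 and 0.0549 without CBAP-reconstituted replicates 1 and 2. In the order of the groups, CBAP knockdown was above CBAP-reconstituted (log2 difference 1.31, limma adjusted p = 0.0269), and the steps from there to CBAP knockout (adjusted p = 0.274) and to sh-Ctrl (0.659) did not pass. Between all CBAP-deficient and CBAP-expressing libraries S1PR1 was at 12.4 ± 9.95 and 5.73 ± 2.19 FPKM (SD, n = 4 each), and the difference did not pass the test (0.76, limma adjusted p = 0.464).

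KLF2 (chromosome 19, 16435637 to 16439496, plus strand) encodes a Krüppel-like factor that keeps T cells quiescent and activates S1PR1. Its FPKM was 15.9 and 40.4 in sh-Ctrl, 58.1 and 61.8 in CBAP-reconstituted, 71.2 and 24.2 in CBAP knockdown, and 18.6 and 17.7 in CBAP knockout cells. The libraries of sh-Ctrl cells and those of CBAP knockdown cells were far apart from each other and overlapped, whereas those of the CRISPR set agreed closely within groups. The log2 fold change was 0.69 (95% confidence interval -0.78 to 2.16, limma adjusted p = 0.48) in the shRNA set and turned to -0.07 without CBAP knockdown replicate 1. CBAP knockout cells had KLF2 at 0.303 times the CBAP-reconstituted level (log2 fold change -1.67, 95% confidence interval -3.14 to -0.20, limma adjusted p = 0.0612). With the spread taken from the CRISPR set alone, that adjusted p was 0.000303, and it was 0.0493 without sh-Ctrl replicate 2, 0.025 without CBAP knockdown replicate 1 and 0.0254 without replicate 2. The difference between the sets was 2.36 (limma adjusted p = 0.0798, but 0.0488 without sh-Ctrl replicate 2 and 0.0217 without CBAP knockdown replicate 2), and no step in the order of the 4 groups passed the test.

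SESN1 (chromosome 6, 109305512 to 109416049, minus strand), a sestrin that restrains mTORC1 when leucine is scarce, was the steadiest of the group. Its FPKM was 6.41 and 5.26 in sh-Ctrl, 5.54 and 5.45 in CBAP-reconstituted, 5.92 and 6.38 in CBAP knockdown, and 5.66 and 5.48 in CBAP knockout cells. The groups overlapped within each set, no step in their order passed the test, and the log2 fold changes were 0.07 (95% confidence interval -0.17 to 0.31) and 0.02 (-0.22 to 0.26).

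IRS2 (chromosome 13, 110405042 to 110438930, minus strand), an adaptor that links the insulin receptor to PI3K, was 1.21 and 0.887 in sh-Ctrl, 0.469 and 0.428 in CBAP-reconstituted, 1.21 and 1.02 in CBAP knockdown, and 1.22 and 1.10 FPKM in CBAP knockout cells. The CBAP-reconstituted libraries were below the other 6. Without the filter on low values, the log2 fold change of IRS2 was 0.58 in the CRISPR set (limma adjusted p = 0.00548) and 0.05 in the shRNA set (0.812). PIK3IP1 (chromosome 22, 31677580 to 31688520, minus strand), an inhibitor of PI3K, was at 0.688 and listed at 0 in sh-Ctrl, at 0.215 and 0.272 in CBAP-reconstituted, at 0.164 and listed at 0 in CBAP knockdown, and at 0.732 and 0.515 FPKM in CBAP knockout cells. These levels were higher in CBAP knockout than in CBAP-reconstituted libraries, and without the filter the change did not pass the test (log2 fold change 0.38, limma adjusted p = 0.253). SESN1, IRS2 and PIK3IP1 overlap transcripts of the opposite strand in the annotation used here, so reads of these transcripts may be among their values.

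Of the 8 tested genes, 3 were thus called in the shRNA set, all higher (FOXO1, S1PR1 and TRIB2), where 12.3% of all tested genes were called and 3.62% were called higher. In the CRISPR set 2 of 8 were called, both higher (TRIB2 and TXNIP), where 49.9% of all tested genes were called and 23.9% were called higher. For 3 of 8 (FOXO1, S1PR1 and TXNIP) the sets differed in their change, as they did for 33.8% of all tested genes. The median log2 fold change of the 8 was 0.52 in the shRNA set, against -0.06 over all tested genes, and 0.00 in the CRISPR set, against 0.00. The shRNA set calls rested on a spread estimated from all 8 libraries, since with the spread of that set alone 0 of the 8 passed (adjusted p of 0.167 for S1PR1, 0.183 for TRIB2 and 0.236 for FOXO1). They were also lost without sh-Ctrl replicate 1 (adjusted p of 0.0672, 0.0918 and 0.0929) and without either library of either CRISPR-set group, where the adjusted p-values lay between 0.0531 and 0.0931. Without CBAP knockdown replicate 1, 1 of the 3 passed. The CRISPR set calls of TRIB2 and TXNIP held without each library in turn. With the spread of the CRISPR set alone, 5 of the 8 passed there, 2 higher and 3 lower. Those lower were KLF2 (limma adjusted p = 0.000303), S1PR1 (0.0095) and FOXO4 (0.0131).

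Over the 8 libraries, FOXO1 and S1PR1 had a Pearson's r of log2(FPKM + 1) of 0.90, TXNIP and TRIB2 of 0.80, and FOXO3 and FOXO4 of -0.73. These values describe 8 libraries in 4 groups of 2 and follow the group means. The most alike genes were sought among 10542 tested genes with no listed 0, less the members, the genes of the lists and the cell markers. Of those left, the genes most like TRIB2 were ITPKB (r = 0.984), an inositol kinase, and SLFN5 (r = 0.983), a Schlafen family gene. SLFN5 was 4.80 and 5.0 in sh-Ctrl, 4.60 and 4.59 in CBAP-reconstituted, 11.6 and 7.67 in CBAP knockdown, and 12.6 and 12.4 FPKM in CBAP knockout cells. FOXO1 was most like LPAR6 (r = 0.983), a receptor for lysophosphatidic acid, and IFITM3 (0.969), an antiviral membrane protein. LPAR6 was 22.0 and 17.6 FPKM in CBAP knockdown cells and 1.60 to 4.07 in the other 6 libraries. The closest genes were OAS2 (r = 0.984) and TOLLIP (0.963) for S1PR1, ETV3 (0.984) and PLAUR (0.983) for TXNIP, FHL2 (0.963) and the joint entry C11orf80,RCE1 (0.953) for KLF2, SASH3 (0.996) and UBE2M (0.992) for FOXO4, and SRGAP2 (0.913) and DDHD1 (0.894) for FOXO3.

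A wider list of 44 genes described as FOXO targets gave the setting for these genes. Of them, 37 were in the table and 31 were tested. Between the CBAP classes 0 passed by limma, while 12 (38.7%) had an unadjusted p under 0.05, as had 2397 (21%) of all tested genes. In the shRNA set 4 rose and 4 fell (25.8% called, against 12.3% of all tested genes), with a median log2 fold change of 0.01 against -0.06. In the CRISPR set 15 rose and 7 fell (71.0%, against 49.9%), with a median of 0.34 against 0.00. The list was called in both directions in each set.

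The targets called in the same direction in both sets were GABARAPL1, MAP1LC3B, CAT and CCNG2, which rose, and BNIP3 and PINK1, which fell, thus 6 of 31 (19.4%, against 5.76% of all tested genes). For these 6 genes the CRISPR set calls were not examined without single libraries or with other scaling. In the shRNA set the calls of GABARAPL1 and PINK1 held without each library in turn. That of CCNG2 was lost without any 1 library (adjusted p of 0.0613 to 0.129), that of CAT without any but CBAP knockdown replicate 1 (0.0635 to 0.126), that of MAP1LC3B without any outside the CBAP knockdown group (0.0527 to 0.0731), and that of BNIP3 without any but sh-Ctrl replicate 2 and CBAP knockdown replicate 2 (0.0607 to 0.0937). GABARAPL1 and MAP1LC3B encode autophagosome proteins of the Atg8 family. GABARAPL1 was 13.8 and 15.4 in sh-Ctrl against 28.6 and 27.0 in CBAP knockdown cells (log2 fold change 0.89, limma adjusted p = 0.00437), and 7.23 and 6.60 in CBAP-reconstituted against 13.2 and 12.8 FPKM in CBAP knockout cells (0.82, limma adjusted p = 0.000697). It was higher in the CBAP-deficient group of each set, but the CBAP knockout libraries were below the sh-Ctrl libraries, so the classes overlapped. CAT, the peroxide-degrading enzyme catalase, was 29.6 to 36.3 FPKM in the CBAP-expressing and 41.0 to 47.1 in the CBAP-deficient libraries, without overlap. MAP1LC3B and CITED2, another target of the list, were also higher without overlap, as were 4.67% of all tested genes. PINK1 was lower without overlap, and the share of all tested genes that were lower without overlap is not given here. CCNG2 encodes an atypical cyclin linked to cell cycle arrest, and its log2 fold changes were 0.44 and 0.37. MAP1LC3B rose by 0.32 and 0.19 on the log2 scale. PINK1 and BNIP3 act in mitophagy, the removal of mitochondria. PINK1 had log2 fold changes of -0.69 and -0.19 and BNIP3 of -0.81 and -0.62. The other targets called in the shRNA set were IRS1 (-0.52) and EIF4EBP1 (-0.34), which encode an insulin receptor adaptor and a translation repressor. The IRS1 call was lost without any library but CBAP knockdown replicate 2 (adjusted p of 0.0595 to 0.146), and that of EIF4EBP1 without any but replicate 2 of sh-Ctrl or of CBAP knockdown (0.0749 to 0.107). IRS1 moved the other way in the CRISPR set (0.45, limma adjusted p = 0.0259).

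The largest rises of the list in the CRISPR set were those of CDKN1A, TNFSF10, SESN2 and CXCR4. CDKN1A, the cell cycle inhibitor p21, was 0.996 and 0.954 in CBAP-reconstituted and 7.14 and 7.24 FPKM in CBAP knockout cells, and 0.630 to 1.68 in the shRNA set. TNFSF10, the death ligand TRAIL, was 0.761 and 0.682 in CBAP-reconstituted and 4.93 and 5.47 FPKM in CBAP knockout cells, and 1.69 to 2.17 in the shRNA set. Both genes stood apart in the knockout libraries (log2 fold changes 2.05 and 1.85, limma adjusted p of 0.00112 and 0.000146). Neither passed in the shRNA set (-0.23 and 0.08). SESN2, a stress-induced relative of SESN1, had a log2 fold change of 1.12, and CXCR4, the receptor for the chemokine CXCL12, one of 1.11, from 162 and 163 to 350.1 and 354 FPKM. The SESN2 call was lost without any library of the CRISPR set (adjusted p of 0.0581 to 0.0817), and that of CXCR4 without either CBAP-reconstituted library (0.052 and 0.0532).

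The largest falls in the CRISPR set were those of RAG1 and RAG2, the enzymes of V(D)J recombination. RAG1 was 31.4 and 31.1 in CBAP-reconstituted and 1.20 and 1.29 FPKM in CBAP knockout cells (log2 fold change -3.85, limma adjusted p = 0.00884). RAG2 was 27.4 and 29.7 in CBAP-reconstituted and 1.04 and 1.40 FPKM in CBAP knockout cells (-3.74, limma adjusted p = 0.00545). Both genes were uneven between replicates of the shRNA set. RAG1 was 22.1 and 5.34 in sh-Ctrl and 1.04 and 5.90 in CBAP knockdown cells, and RAG2 was 18.6 and 6.64 against 3.46 and 13.2 FPKM. The groups overlapped and neither gene passed there (log2 fold changes -1.69 and -0.62). RAG1 and RAG2 overlap on opposite strands in the annotation used here, and whether strand was used in counting is not given in the sources used here, so their reads cannot be fully told apart. BBC3 (PUMA) and BNIP3L, which act in cell death and mitophagy, had log2 fold changes of -0.77 and -0.75. Both calls were lost without any library of the CRISPR set (adjusted p of 0.0907 to 0.158 and of 0.0523 to 0.0792), and that of RAG1 without either CBAP-reconstituted library (0.0512 and 0.0516).

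**Figure D3:**
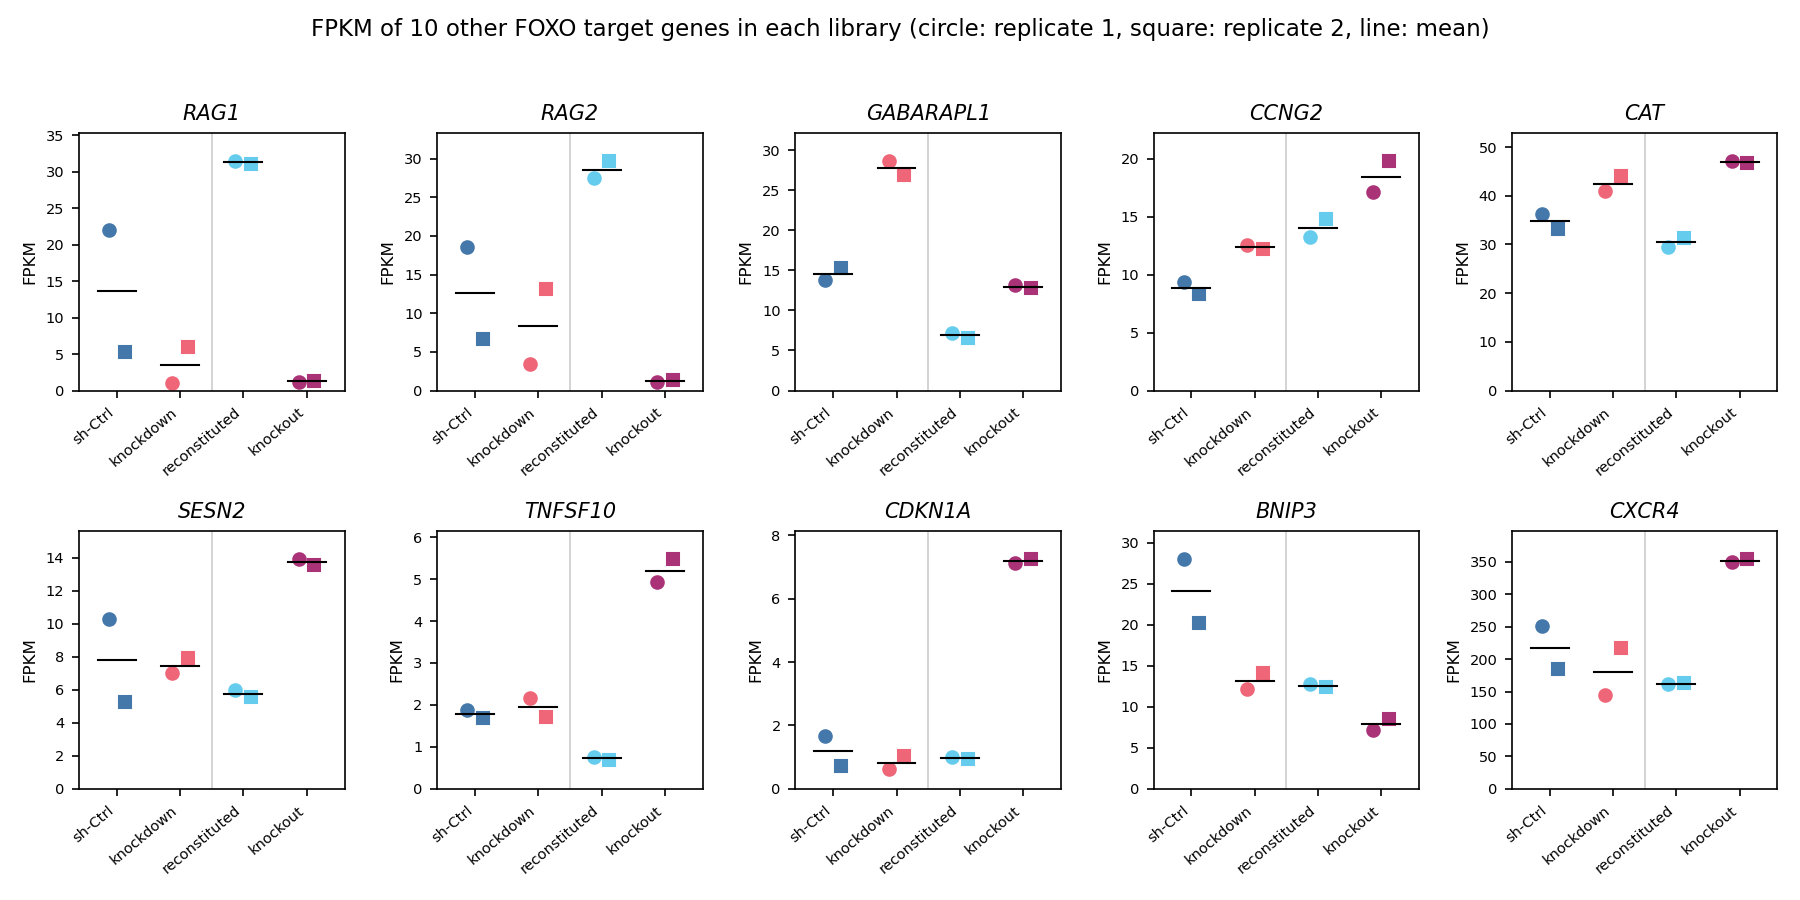
FPKM (linear axes from 0) of 10 other FOXO target genes in each library, with circles for replicate 1, squares for replicate 2 and a line at the group mean. CDKN1A, TNFSF10 and CXCR4 are highest in CBAP knockout cells, RAG1 and RAG2 are at 1.40 FPKM or less there, and RAG1 and RAG2 spread widely within both groups of the shRNA set.

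**Figure D4:**
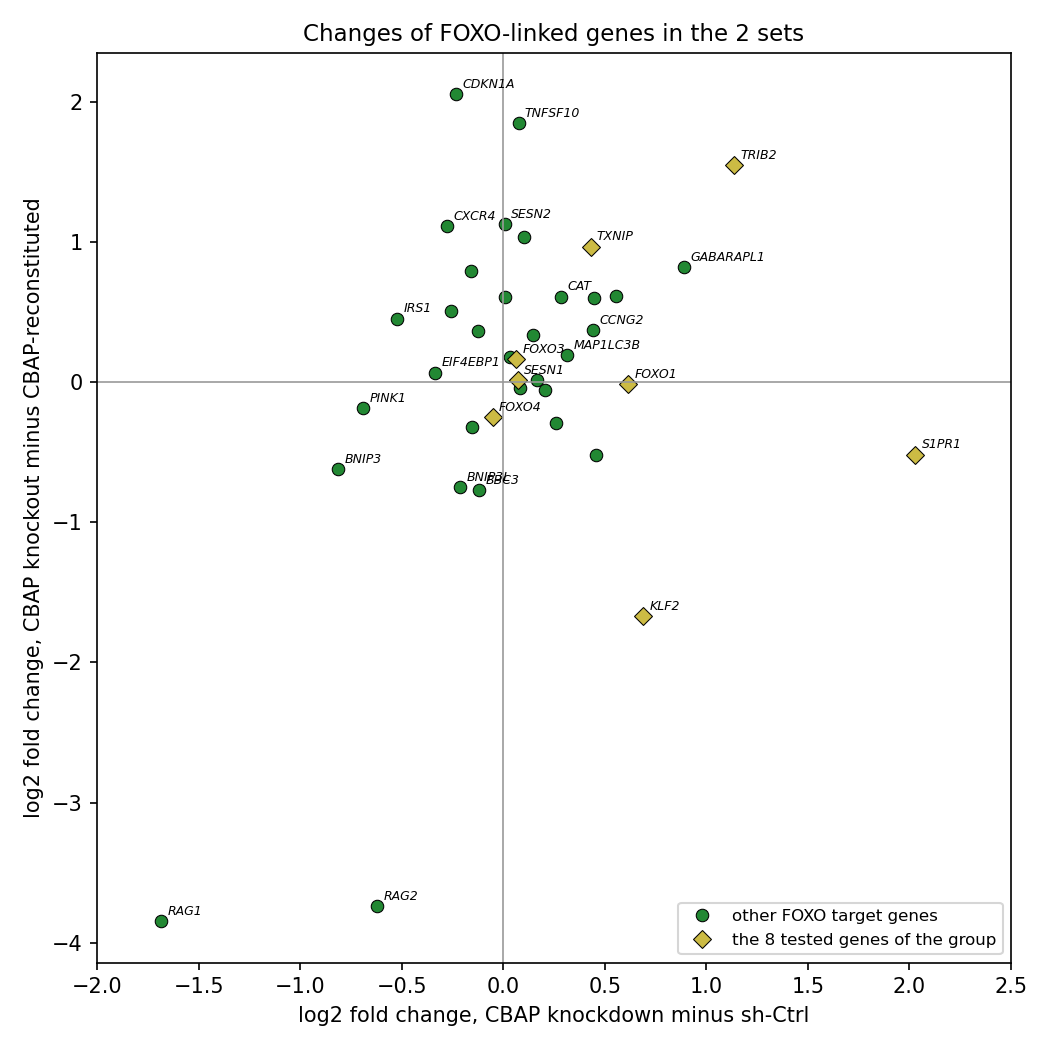
Log2 fold change of FPKM + 1 in the shRNA set (horizontal) against that in the CRISPR set (vertical) for the 8 tested genes (diamonds) and the 31 tested FOXO target genes (circles). Labels mark the diamonds and the targets named for the size of a called change. TRIB2 (1.14 and 1.55) and GABARAPL1 (0.89 and 0.82) lie in the upper right, S1PR1 (2.03 and -0.52) in the lower right and RAG1 and RAG2 at the lower left.

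Genes that act on FOXO proteins were described from a list of 25, of which 23 were tested. Between the CBAP classes 0 passed by limma, while 7 (30.4%) had an unadjusted p under 0.05, against 21% of all tested genes. The shRNA set had 1 that rose and 4 that fell (21.7%, against 12.3% of all tested genes), the CRISPR set 3 that rose and 7 that fell (43.5%, against 49.9% of all tested genes). SKP2, SIRT2 and YWHAG fell in both sets (3 of 23, 13%, against 5.76% of all tested genes). Their shRNA set calls were all lost without either CBAP-reconstituted library, that of SKP2 also without either sh-Ctrl library (adjusted p of 0.0666 to 0.0829), and that of YWHAG also without either sh-Ctrl or CBAP knockout library (0.0501 to 0.101). SKP2, the substrate receptor of a ubiquitin ligase that degrades FOXO1, was 55.5 to 67.4 FPKM in the CBAP-expressing libraries and 38.3 to 44.4 in the CBAP-deficient libraries, without overlap (log2 fold changes -0.45 and -0.65, limma adjusted p of 0.0243 and 0.00158). The classes did not overlap for the list genes YWHAE, YWHAG and YWHAQ either, each lower in the CBAP-deficient class. The share of all tested genes that were lower without overlap is not given here. SIRT2, a FOXO deacetylase, had log2 fold changes of -0.58 and -0.25, and its CRISPR set call was not examined without single libraries. YWHAG and YWHAE encode 14-3-3 proteins, which hold phosphorylated FOXO in the cytoplasm. YWHAG fell from 132 and 137 to 113 and 116 FPKM in the shRNA set and from 163 and 162 to 95.2 and 94.6 in the CRISPR set. YWHAE was 716 and 723 in CBAP-reconstituted and 340.5 and 347 FPKM in CBAP knockout cells (log2 fold change -1.06, limma adjusted p = 0.000451), and -0.17 separated the groups of the shRNA set (adjusted p = 0.26). RAN, the GTPase of nuclear transport, fell by 0.96 in the CRISPR set on the log2 scale. CDK2, a kinase that can phosphorylate FOXO1, fell by 0.42 and the coactivator CREBBP rose by 0.34 in the shRNA set. Both calls were lost without sh-Ctrl replicate 1 or any library of the CRISPR set, and that of CREBBP also without CBAP knockdown replicate 2 (adjusted p of up to 0.0847 and 0.109). IKBKB, MAPK8 and MDM2 rose in the CRISPR set, by 0.54, 0.38 and 0.33. The MAPK8 call was lost without any library of the CRISPR set (adjusted p of 0.0635 to 0.106).

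Of 5 tested relatives and partners of TRIB2, COP1 (listed under its older symbol RFWD2), the ubiquitin ligase that TRIB proteins bind, rose in both sets (1 of 5, 20%, against 5.76% of all tested genes). It was 8.63 and 8.95 in sh-Ctrl, 11.9 and 11.9 in CBAP-reconstituted, 10.7 and 10.7 in CBAP knockdown, and 14.5 and 14.8 FPKM in CBAP knockout cells (log2 fold changes 0.26 and 0.28, limma adjusted p of 0.0324 and 0.00767). The CBAP-deficient group was the higher in each set, and the classes overlapped since CBAP-reconstituted cells were above CBAP knockdown cells. In the shRNA set the COP1 call was lost without any library outside the CBAP knockdown group (adjusted p of 0.0602 to 0.11), and in the CRISPR set without either CBAP-reconstituted library or CBAP knockout replicate 2 (0.0575 to 0.0628). TRIB3, the stress-induced paralog of TRIB2, was 21.4 and 23.7 in CBAP-reconstituted and 34.2 and 34.5 FPKM in CBAP knockout cells (log2 fold change 0.59, limma adjusted p = 0.00532). TRIB3 in the shRNA set had a log2 fold change of -0.30 (limma adjusted p = 0.11). Between the CBAP classes 0 of the 5 passed by limma and 0 had an unadjusted p under 0.05.

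Of 16 tested paralogs and partners of the other genes, ARRDC3, an arrestin-like relative of TXNIP, rose in both sets (6.25%, against 5.76% of all tested genes). It was 2.02 and 2.11 in sh-Ctrl, 2.94 and 2.58 in CBAP-reconstituted, 4.54 and 3.58 in CBAP knockdown, and 6.10 and 7.20 FPKM in CBAP knockout cells, without overlap of the classes (log2 fold changes 0.72 and 1.02, limma adjusted p of 0.0252 and 0.00175). KLF10 and MLXIP of this list were also higher in the CBAP-deficient class without overlap, as were 4.67% of all tested genes. FOXO6 was 4.66 and 4.78 in sh-Ctrl against 3.67 and 3.56 in CBAP knockdown, and 5.19 and 5.52 in CBAP-reconstituted against 7.77 and 7.44 FPKM in CBAP knockout cells. It fell in the shRNA set and rose in the CRISPR set (log2 fold changes -0.31 and 0.44, limma adjusted p of 0.0402 and 0.00349). ARRDC3 and FOXO6 were the 2 genes called in the shRNA set (12.5%, against 12.3% of all tested genes). There the FOXO6 call was lost without any library outside the CBAP knockdown group (adjusted p of 0.0882 to 0.11), and that of ARRDC3 without any sh-Ctrl or CBAP-reconstituted library (0.0702 to 0.0851). In the CRISPR set 7 rose and 4 fell (68.8%, against 49.9%). Among those that rose there, KLF10, a Krüppel-like relative of KLF2, had a log2 fold change of 1.12, ARRDC4 of 1.05 and SPHK1, a kinase that makes the S1PR1 ligand, of 0.62. SPHK2, the other such kinase, fell by 0.54, MLX, a partner of the factor that drives TXNIP, fell by 0.31, ARRDC1 fell by 0.25, and TXN, the thioredoxin that TXNIP binds, fell by 0.22. TXN was at 0.003 after quantile normalization, and its call was lost without any library outside the CBAP knockdown group (adjusted p of 0.0663 to 0.215). The MLX call was lost without any library of the CRISPR set (0.114 to 0.144), that of SPHK2 without either CBAP-reconstituted library or CBAP knockout replicate 2 (0.0501 to 0.0612), and that of ARRDC1 without either CBAP-reconstituted library or CBAP knockout replicate 1 (0.0559 to 0.0971). Between the CBAP classes 0 of the 16 passed by limma, while 4 (25%) had an unadjusted p under 0.05, against 21% of all tested genes.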

How the data were processed

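RNA of 8 Jurkat libraries (2 each of sh-Ctrl, CBAP-reconstituted, CBAP knockdown and CBAP knockout) was sequenced by the authors as 100-bp paired-end reads, and aligned to hg19 with TopHat. The submitters' processing notes also name CASAVA 1.8, Bowtie, Cufflinks and Cuffdiff. The authors deposited FPKM values estimated with Cuffdiff, in 1 table of 13453 genes. The annotation, strand setting and library scaling are not given in the sources used here. FPKM values hold no counts and showed no steps of whole reads, so no depth, interval from counts or count test was used, and the precision rests on 2 libraries per group.

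FPKM values were transformed to log2(FPKM + 1). The 11427 genes whose FPKM averaged 1 or more were tested with limma 3.58.1 (R 4.3.3, trended empirical Bayes), with Benjamini-Hochberg adjustment over all of them, at an adjusted p under 0.05. One model compared the CBAP classes, 4 libraries against 4, and the other had a mean per group over all 8 libraries. Both were tested on simulated data. Groups were taken from the labels. Samples with the same replicate number in the labels were checked for shared deviations (r of -0.063 to 0.146 between groups), and the numbers do not pair the samples.

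The members and gene lists were chosen with earlier results of these data known. Named genes are the 10 members, TMEM102, from each list up to 4 genes per direction and comparison with the largest log2 fold change among those called, and for each tested member the 2 genes outside the lists with the highest Pearson's r. Outside this rule, cell markers are named, and CITED2, YWHAQ and MLXIP because their classes did not overlap. Positions are from GENCODE 44 lifted to GRCh37, the build of hg19, and promoters from RefSeq (Python 3.11.15, pandas 2.3.3, matplotlib 3.10.9). All 10 members matched a RefSeq promoter. Alternatives covered the pseudocount, the filter, listed zeros, scaling, the trend, the replicate block, the set and single libraries. Protein sequences were not used here.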

Additional observations from a re-analysis of the deposited data

Results flagged for a closer look

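A library far from the other 3 of its CBAP class was seen in 5 of 94 groups of 4 examined, where chance gives about 4.7 (1 in 20). That rate takes the 4 libraries as 1 population. Each class holds libraries of both sets, so the rate cannot judge this count. KLF2 was 71.2 FPKM in CBAP knockdown replicate 1, where the rest of the CBAP-deficient class had 17.7, 18.6 and 24.2. RAG1 was 5.9 FPKM in CBAP knockdown replicate 2, against 1.05, 1.2 and 1.29. MLX was 40.5 FPKM in CBAP knockdown replicate 1, against 46.0 to 46.8. Among the CBAP-expressing libraries, SESN2 was 10.3 FPKM in sh-Ctrl replicate 1, against 5.28, 5.57 and 5.96, and BNIP3L was 24.6 FPKM in sh-Ctrl replicate 2, against 35.5 to 37.1. All 5 libraries were of the shRNA set.

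For 22 of 45 named genes the sets differed in their change by limma's test of the difference itself (adjusted p under 0.05), against 33.8% of all tested genes. Most of the 45 were named for a large called change in 1 of the sets, so their count is a description. Each value is the log2 fold change in the shRNA set minus that in the CRISPR set. For the members it was 0.626 for FOXO1, -0.535 for TXNIP and 2.546 for S1PR1. For the other FOXO targets it was -2.286 for CDKN1A, -1.773 for TNFSF10, -1.39 for CXCR4, -0.973 for IRS1, -0.505 for PINK1, -0.401 for EIF4EBP1, -0.326 for CAT and 3.118 for RAG2. For genes that act on FOXO proteins it was -0.778 for IKBKB, -0.568 for CDK2, -0.294 for MDM2, 0.542 for YWHAG, 0.884 for RAN and 0.892 for YWHAE. For relatives and partners it was -0.891 for TRIB3, -0.746 for FOXO6, -0.709 for KLF10, -1.097 for ARRDC4 and -0.933 for SPHK1. The sets differ in method, control and cells, which cannot be told apart here.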

How the results depend on the processing

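With 2 libraries per group and an unknown depth, calls near the threshold depended on single libraries. TRIB2 and TXNIP in the CRISPR set passed in all 17 alternatives run for each (limma adjusted p of 0.000508 to 0.023 and of 0.000283 to 0.0151). TRIB2 between the CBAP classes had adjusted p-values of 0.0109 to 0.185. In the shRNA set they were 0.00814 to 0.167 for S1PR1, 0.0113 to 0.183 for TRIB2 and 0.0184 to 0.236 for FOXO1. Where a call was lost otherwise, the cause was not tested.

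Between the CBAP classes 71 genes were called, 108 without the filter, 173 after quantile normalization, 187 with libraries scaled to 1 median, 1404 with the set as a covariate, and 8 to 55 without single libraries. Of the members 1 was called, 2 with the set as a covariate, and 0 to 1 without single libraries. In the shRNA set 1408 genes were called, 86 with the libraries of that set alone, and 303 to 2371 without single libraries, and of the members 3, 0 and 0 to 4. In the CRISPR set 5697 genes were called and 3327 to 6863 without single libraries. Of the members 2 were called there, 5 with the libraries of that set alone (2 higher and 3 lower, FOXO4, KLF2 and S1PR1), and 2 to 4 without single libraries. The change differed between the sets for 3861 genes, and for 1813 to 5151 without single libraries, and for 3 members, 1 with a pseudocount of 0.1, and 0 to 4 without single libraries. Between CBAP-reconstituted and sh-Ctrl cells 4497 genes differed, and 1582 to 5918 without single libraries, and 2 members, 1 with a mean FPKM of at least 5 (which left FOXO4 out), 1 after quantile normalization, 1 with 1 median, and 0 to 2 without single libraries. Between CBAP knockout and CBAP knockdown cells 4 members differed, and 2 with a mean FPKM of at least 5 (which left FOXO1 and FOXO4 out).

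The share of calls that were higher depended on the scaling. It was 33.8% between the classes and 54.3% after quantile normalization, 29.4% in the shRNA set and 50.4%, 72.9% between CBAP-reconstituted and sh-Ctrl cells and 54.7%, and 71.9% between CBAP knockout and CBAP knockdown cells and 53.4%. With 1 median it was 44% in the shRNA set, 62.6% against 45.9% for the difference between the sets, 55.8% between CBAP-reconstituted and sh-Ctrl cells and 41.9% between CBAP knockout and CBAP knockdown cells. The median log2 fold change of all genes moved in these last comparisons from 0.165 to 0.047 or 0.057 and from 0.20 to 0.037 or -0.046.

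The replicate number shared by the labels does not pair the samples. With it as a block, 11 genes and 0 members were called between the classes, 776 genes and 0 members in the shRNA set, and 1 member for the difference between the sets.

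Fold changes that changed sign were all of values not called, except that of TXN in the CRISPR set (0.003 after quantile normalization). After quantile normalization it was 0.04 for FOXO4 in the shRNA set, 0.027 for FOXO1 and -0.12 for SESN1 in the CRISPR set, 0.114 for FOXO3 in the difference between the sets and -0.111 for TRIB2 between CBAP-reconstituted and sh-Ctrl cells. With 1 median it was -0.071 for SESN1 in the CRISPR set, 0.037 for FOXO3 in the difference and -0.07 for TRIB2 between CBAP-reconstituted and sh-Ctrl cells. Without single libraries, those that changed sign ranged in the shRNA set from -0.017 to 0.145 for FOXO3, -0.124 to 0.018 for FOXO4, -0.072 to 1.448 for KLF2 and -0.051 to 0.192 for SESN1, in the CRISPR set from -0.049 to 0.023 for FOXO1 and -0.004 to 0.037 for SESN1, in the difference from -0.211 to 0.017 for FOXO3 and -0.068 to 0.176 for SESN1, between CBAP-reconstituted and sh-Ctrl cells from -0.243 to 0.011 for FOXO1, -0.19 to 0.054 for SESN1 and -0.19 to 0.276 for TRIB2, and between CBAP knockout and CBAP knockdown cells from -0.171 to 0.056 for FOXO3. Of 1497 values recomputed for single genes, 237 lost and 24 gained a call.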
